A study of Homo sapiens with 22 samples.

Results

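The Frizzled receptors are a family of 10 genes, FZD1 to FZD10, and their transcripts were followed across 6 groups of HEK293 cells, a human embryonic kidney line. The members were taken by symbol from a count table of 48162 gene identifiers, and all 10 were found once each. The family was selected on its gene names and, for FZD10, on the measured fall of its count from the wild-type (WT) to the VPR libraries. FZD10 values in any comparison with the VPR or WT libraries are therefore given as a description, with no test. The same holds for every member in the comparison of VPR with WT.

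Frizzled proteins cross the plasma membrane with a serpentine domain and catch secreted Wnt ligands with a cysteine-rich domain outside the cell. Together with the co-receptors LRP5 and LRP6 they pass the signal to Dishevelled, which holds back the destruction complex so that beta-catenin builds up and enters the nucleus with TCF and LEF factors. Other Wnts act through Frizzleds on cell polarity and calcium without beta-catenin, and the ubiquitin ligases RNF43 and ZNRF3 remove Frizzleds from the surface.

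Polyadenylated RNA was sequenced from 12 libraries, 2 biological replicates in each group by the series' own account. dCas9, a Cas9 that binds DNA without cutting it, was fused to the activator VPR, to p300 (the acetyltransferase encoded by EP300), to p300 carrying the D1399Y change, which removes its acetyltransferase activity, or to VPRP, which joins VPR with p300. All these fusions were combined with a guide for HBB, the beta-globin gene (sgHBB), and VPRP was also combined with a non-target guide. The WT cells held a guide and no fusion, and which guide was not stated in the sources used here. By the protocol cells were given doxycycline for 48 hours, while the WT label gives no treatment. Cells of the fusion groups were sorted for GFP and BFP and WT cells for BFP alone, so the sort gate and the presence of a fusion cannot be told apart in any comparison with WT. Whether the lines were clonal was not stated in the sources used here.

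The libraries held 14894558 to 17479523 counts on genes. HBB was at 0 CPM (counts scaled to a common library size with TMM factors) in WT and with the non-target guide, and its group means were 1556 CPM with VPRP sgHBB, 187 with p300, 80.4 with VPR and 79.1 with p300 D1399Y, which follows the guide labels. EP300 reads, which the fusion also yields where it holds p300, averaged 107 CPM in WT, 98.7 with VPR, 1124 with p300, 195 with p300 D1399Y, 375 with VPRP sgHBB and 1172 with VPRP non-target. The p300 and p300 D1399Y groups thus differ in EP300 reads as well as in acetyltransferase activity, and these cannot be told apart in any comparison between them. The groups also fell apart by MAGEA10, a germline antigen gene: its means were 9.46, 25.9 and 32.0 CPM in WT, VPR and VPRP non-target, against 0, 0.0692 and 0.213 CPM in p300, p300 D1399Y and VPRP sgHBB, and TWIST2 showed the opposite pattern. The 7 measured kidney and HEK293 genes summed to means of 429 CPM in WT, 319 with VPR, 228 with p300, 348 with p300 D1399Y, 186 with VPRP sgHBB and 235 with VPRP non-target. In the same order of groups, blood genes summed to 3.07, 4.76, 4.04, 3.67, 8.69 and 9.24 CPM and endothelial genes to 0.066, 0.234, 0.424, 0.416, 1.145 and 1.69 CPM. Differentiated epithelial genes summed to 1.82 to 3.79 CPM in the group means. Among 3 fibroblast genes only COL1A1 passed the count filter, and it averaged 12.2 CPM in WT, 21.5 with VPR, 28.0 with p300, 35.2 with p300 D1399Y, 59.9 with VPRP sgHBB and 39.1 with VPRP non-target. DCN, which marks fibroblasts, was at 0 in WT and at most 0.390 CPM in any group mean. The sum of the 3 genes ranged from 11.3 to 61.3 CPM per library, and the part of any of these marker lists in the results on the Frizzled genes was not tested. In bulk RNA, fewer cells that make a transcript and less transcript per cell cannot be told apart.

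Promoter stretches are shown for FZD1, FZD4, FZD5, FZD8 and FZD9, the only members with an entry in the RefSeq table (build GRCh38.p14). These same 5 genes were called higher with VPRP and the non-target guide than in WT, but the calls did not decide which were shown. With no stretch for the remaining members, the motifs cannot be compared with those of members not called higher. Each run holds the 250 bases before the start of the gene, 5′ to 3′ on the gene's own strand. Capitals mark the GC box GGGCGG or its reverse complement CCGCCC, a motif bound by Sp1-type factors, and the CCAAT box or its reverse complement ATTGG.
FZD1, chr7:91264183-91264432, plus strand: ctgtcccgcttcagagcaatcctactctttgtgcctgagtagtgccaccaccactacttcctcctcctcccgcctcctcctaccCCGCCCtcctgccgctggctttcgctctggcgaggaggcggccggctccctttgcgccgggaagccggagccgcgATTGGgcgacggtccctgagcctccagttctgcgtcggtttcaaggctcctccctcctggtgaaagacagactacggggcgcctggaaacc
FZD4, chr11:86955396-86955645, minus strand: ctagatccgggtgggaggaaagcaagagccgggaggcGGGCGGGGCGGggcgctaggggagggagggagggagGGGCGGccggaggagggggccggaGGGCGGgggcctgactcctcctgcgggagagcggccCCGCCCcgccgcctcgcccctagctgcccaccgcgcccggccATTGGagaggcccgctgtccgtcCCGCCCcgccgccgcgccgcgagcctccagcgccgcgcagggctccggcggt
FZD5, chr2:207769907-207770156, minus strand: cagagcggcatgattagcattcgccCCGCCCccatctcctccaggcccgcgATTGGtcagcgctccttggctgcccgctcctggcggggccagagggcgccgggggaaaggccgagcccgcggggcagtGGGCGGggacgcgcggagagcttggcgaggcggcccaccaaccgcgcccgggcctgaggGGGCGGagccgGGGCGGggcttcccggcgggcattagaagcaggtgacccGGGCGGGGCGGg
FZD8, chr10:35642297-35642546, minus strand: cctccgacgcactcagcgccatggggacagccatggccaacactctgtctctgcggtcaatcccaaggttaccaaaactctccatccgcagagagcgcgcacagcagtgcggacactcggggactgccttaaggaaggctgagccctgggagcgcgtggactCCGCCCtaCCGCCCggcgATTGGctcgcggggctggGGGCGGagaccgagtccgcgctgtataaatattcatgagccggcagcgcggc
FZD9, chr7:73433528-73433777, plus strand: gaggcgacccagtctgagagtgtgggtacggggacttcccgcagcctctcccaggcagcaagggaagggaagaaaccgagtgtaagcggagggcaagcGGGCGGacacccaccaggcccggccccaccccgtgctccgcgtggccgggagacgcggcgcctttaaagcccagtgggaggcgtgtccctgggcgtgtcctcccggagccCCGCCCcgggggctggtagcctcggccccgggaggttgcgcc
The GC box occurred once in FZD1, 6 times in FZD4, 6 times in FZD5, 3 times in FZD8 and 2 times in FZD9, with overlapping matches counted and both strands searched. Of 35116 RefSeq promoters of this length, 42.6% held at least 1 GC box and 32.0% a CCAAT box, so these motifs are common. A CCAAT box was found in FZD1, FZD4, FZD5 and FZD8 and not in FZD9. FZD8 alone of the 5 held the letters TATAAA, which 10.7% of all promoters hold on either strand, and the TCF core CTTTGA (11.2% of all promoters, either strand) was in none of the 5. The 5 stretches held 19 to 33 CpG dinucleotides, against a median of 11 over all promoters. FZD2, FZD3, FZD6, FZD7 and FZD10 have no entry.

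All 10 Frizzled genes passed the filter on low counts, with a called gene defined as one with an adjusted p under 0.05 in edgeR's quasi-likelihood test over 16694 genes. Against WT, 4 of the 9 tested members were called with p300, 2 higher (FZD6, FZD9) and 2 lower (FZD4, FZD7), where 46.1% of all genes were called (24.5% higher, 21.6% lower). With p300 D1399Y 1 was higher (FZD6) and 2 were lower (FZD4, FZD7), beside 30.2% of all genes (15.7% higher, 14.5% lower). Without WT replicate 1 only 1 of these 3 remained called. With VPRP sgHBB 4 were higher (FZD1, FZD4, FZD6, FZD9) and 2 lower (FZD2, FZD7), beside 59.1% (31.1% higher, 28.0% lower). Only 3 members were called for VPRP sgHBB without WT replicate 2, or without VPRP sgHBB replicate 1. With VPRP non-target 5 were higher (FZD1, FZD4, FZD5, FZD8, FZD9) and 1 lower (FZD7), beside 59.7% (31.2% higher, 28.5% lower). These shares of a family of 10 lie near the background, so the counts say little about the family as such, and the results below turn on single members. Over the 10 members the median log2 fold change was -0.13 with p300, -0.02 with p300 D1399Y, 0.04 with VPRP sgHBB and 0.23 with VPRP non-target, against 0.03, 0.00, 0.04 and 0.04 over all genes tested. The 4 comparisons share the WT libraries.

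**Figure D1:**
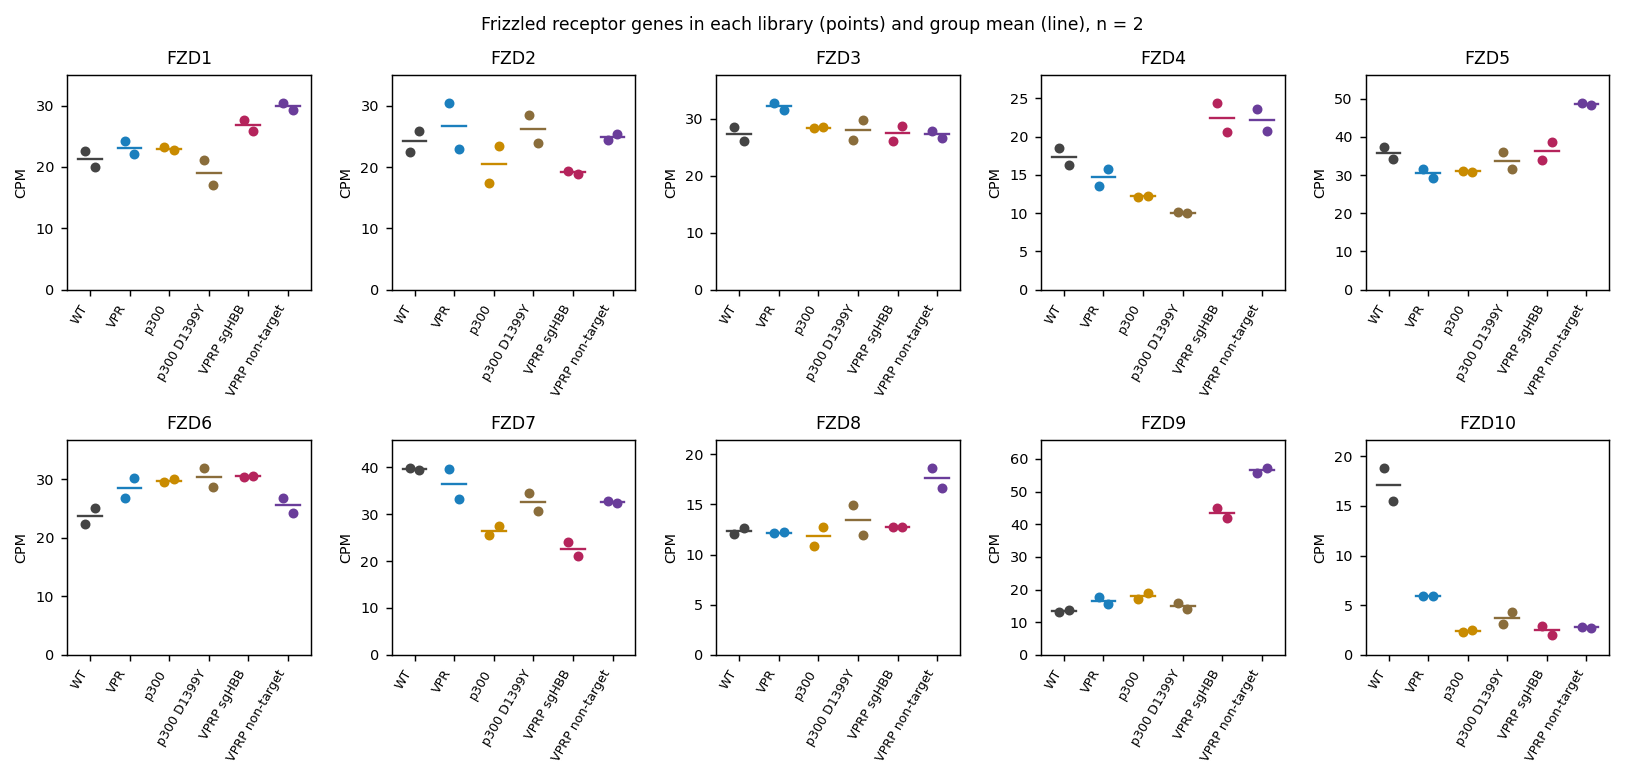
Transcript level of each Frizzled gene (CPM, linear axis from 0) in each of the 12 libraries (points), with the mean of the 2 libraries of a group (line). FZD9 is highest in the 4 VPRP libraries, FZD10 is highest in the 2 WT libraries, and FZD3 stays between 26.1 and 32.9 CPM.

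FZD9 (ENSG00000188763), a receptor of the branch that also holds FZD4 and FZD10 and is known for roles in bone and neural tissue, had the largest called changes of the family. It was at 13.2 and 13.8 CPM in the WT libraries, 17.6 and 15.5 with VPR, 17.3 and 19.0 with p300, and 16.0 and 14.0 with p300 D1399Y. In the VPRP libraries it was at 44.8 and 42.0 CPM with sgHBB and at 55.8 and 57.2 CPM with the non-target guide. The 4 VPRP libraries thus lay above all 8 others, with no overlap. Against WT the rise was 3.21-fold with VPRP sgHBB (log2 1.68, SE 0.11, adjusted p = 5.62e-15) and, for VPRP non-target, 4.18-fold (log2 2.06, SE 0.11, adjusted p = 1.52e-17).

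FZD9 was also higher with VPRP sgHBB than with either part alone under the same guide. The difference was 1.39 on the log2 scale against VPR (SE 0.11, adjusted p = 8.18e-13) and 1.26 against p300 (SE 0.11, adjusted p = 2.39e-11). With the non-target guide VPRP exceeded VPR by 1.77 (SE 0.11, adjusted p = 8.54e-16). These calls held when any library was left out. Of these, VPRP sgHBB against p300 sets groups with few or no MAGEA10 reads against each other, and VPRP non-target against VPR sets groups that both have them. VPRP sgHBB against VPR crosses the MAGEA10 split. EP300 read levels were alike in p300 and VPRP non-target (1124 and 1172 CPM), while FZD9 averaged 18.1 and 56.5 CPM there. Those groups also differ in the guide, in the VPR part and in MAGEA10 reads (0 and 32.0 CPM), and they were not compared by a test. The part of the fusion's level in FZD9 was not tested. Between the guides FZD9 was lower with sgHBB than with the non-target guide by a log2 difference of -0.38 (SE 0.10, adjusted p = 0.00263). With VPRP sgHBB replicate 2 left out that p was 0.0573 and the call was lost. The smaller rise with p300 over WT (log2 0.43, SE 0.12, adjusted p = 0.00376) was lost without p300 replicate 2 (adjusted p = 0.0588). Neither p300 D1399Y against WT (log2 0.15, adjusted p = 0.372) nor p300 against p300 D1399Y (log2 0.27, SE 0.12, adjusted p = 0.0769) passed the threshold for FZD9.

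FZD4 (ENSG00000174804), the receptor for Wnts and for norrin that is needed for retinal vessels, moved in opposite directions with the p300 and the VPRP fusions. Its libraries stood at 18.5 and 16.3 CPM in WT, 13.6 and 15.8 with VPR, 12.2 and 12.3 with p300, and 10.2 and 9.96 with p300 D1399Y. With VPRP they stood at 24.5 and 20.6 CPM under sgHBB and at 23.7 and 20.8 CPM under the non-target guide. The 4 p300 and p300 D1399Y libraries were the lowest of the 12 and the 4 VPRP libraries the highest. FZD4 fell with p300 (log2 -0.51, SE 0.14, adjusted p = 0.00264) and with p300 D1399Y (log2 -0.79, SE 0.14, adjusted p = 4.49e-05) against WT. The 2 forms of p300 did not differ beyond the threshold (log2 0.28, SE 0.15, adjusted p = 0.142).

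FZD4 was 1.83-fold higher with VPRP sgHBB than with p300 (log2 0.87, SE 0.13, adjusted p = 4.13e-06). It exceeded VPR by 0.61 on the log2 scale with VPRP sgHBB (SE 0.13, adjusted p = 0.000206) and by 0.60 with VPRP non-target (SE 0.13, adjusted p = 0.000234). These 3 differences and the 2 falls against WT were called with any library left out. The rises of FZD4 over WT were smaller and less stable. With VPRP sgHBB the log2 difference was 0.37 (adjusted p = 0.0138), lost without WT replicate 2 (0.147) or VPRP sgHBB replicate 1 (0.209). With VPRP non-target it was 0.35 (adjusted p = 0.0176), lost without WT replicate 2 (0.181) or VPRP non-target replicate 1 (0.249) and with no filter on low counts (0.0677). The divergent transcript FZD4-DT, the neighbour of FZD4, averaged 0.327 to 0.606 CPM in the groups and was not called in the comparisons named for FZD4.

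FZD10 (ENSG00000111432), a receptor known for its restricted expression in adult tissues and its presence in some tumours, had the widest range of the family. It was counted 280 and 239 times in the WT libraries, which is 18.8 and 15.5 CPM. With VPR it was at 5.95 and 5.88 CPM, with p300 at 2.33 and 2.53, and with p300 D1399Y at 3.06 and 4.29. The VPRP libraries were at 2.87 and 2.04 CPM with sgHBB, the lower of which held 37 counts, and at 2.85 and 2.71 CPM with the non-target guide. The order of group means was therefore WT (17.1 CPM), VPR (5.92), p300 D1399Y (3.68), VPRP non-target (2.78), VPRP sgHBB (2.46) and p300 (2.43). The libraries of the last 3 groups overlapped, and no library of WT or VPR overlapped with any other group.

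As a description with no test, the level of FZD10 was 2.89-fold lower than in WT with VPR, 7.03-fold with p300, 4.70-fold with p300 D1399Y, 7.02-fold with VPRP sgHBB and 6.14-fold with VPRP non-target. For VPR against WT, 25.3% of all genes were called (13.8% higher, 11.5% lower). Where neither WT nor VPR entered, FZD10 could be tested and no difference passed the threshold. VPRP sgHBB and p300 differed by 0.0016 on the log2 scale (SE 0.27, adjusted p = 0.999) and the 2 guides under VPRP by -0.19 (SE 0.26, adjusted p = 0.629). p300 was below p300 D1399Y by a log2 difference of -0.58 (SE 0.25, adjusted p = 0.081), with no overlap of the libraries. With standard errors of 0.25 to 0.27, smaller differences were not detectable with 2 libraries a group.

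FZD10-AS1, an antisense RNA gene next to FZD10, was looked at after its values were seen. It was at 6.92 and 6.86 CPM in WT, 4.05 and 3.01 with VPR, 0.428 and 0.648 with p300, and 0.983 and 1.18 with p300 D1399Y. With VPRP it was at 2.09 and 1.49 CPM under sgHBB and at 2.49 and 1.66 CPM under the non-target guide. Like FZD10 it was highest in WT and next highest with VPR, and Pearson's r of the log2 CPM of both genes over the 12 libraries was 0.83. The pair parted between VPRP and p300: FZD10-AS1 was 3.25-fold higher with VPRP sgHBB than with p300 (log2 1.70, SE 0.43, adjusted p = 0.00255), a comparison in which FZD10 differed by 0.0016. Whether the counting used strand was not given in the sources used here, so reads of the overlapping part of such a pair cannot be assigned with certainty.

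**Figure D2:**
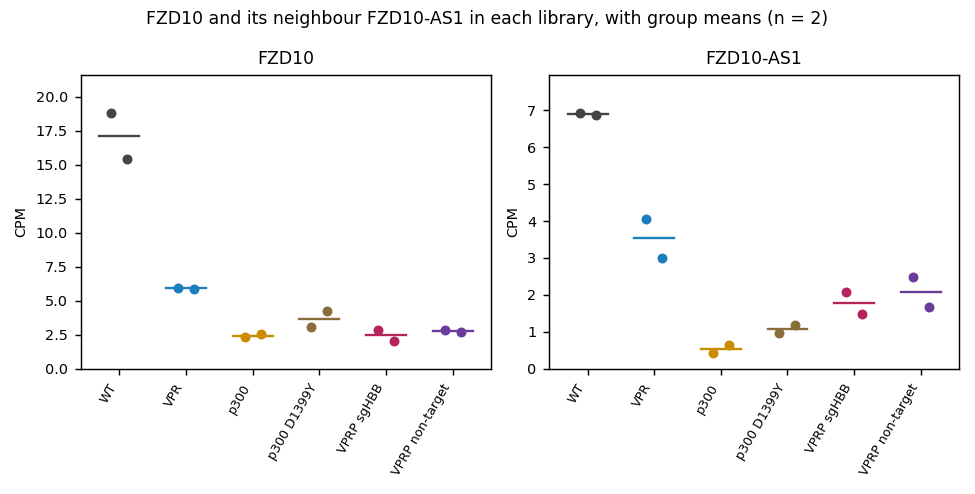
Levels of FZD10 (left) and of its antisense neighbour FZD10-AS1 (right) in CPM, linear axes from 0, for each library (points) with the mean of the 2 libraries of a group (line). Both are highest in WT, and FZD10-AS1 is lower with p300 (0.428 and 0.648 CPM) than with VPRP sgHBB (2.09 and 1.49 CPM).

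Of 3175 genes with a range of at least 1 log2 unit between group means, those whose log2 CPM followed FZD10 most closely over the 12 libraries were LRP11 (r = 0.97), GPC3 (0.97), C12orf76 (0.96), TRIB2 (0.95) and DNPEP (0.95). LRP11 fell from a mean of 130 CPM in WT to 91.5 with VPR and 56.9 with p300. None of the 5 was among the top 5 by Spearman's rho, so the list depends on the measure. FZD9 was followed most closely by SEMA6C (r = 0.99), which went from 14.9 CPM in WT to 53.7 and 69.5 CPM with VPRP sgHBB and non-target, and by OCEL1 (0.99). For FZD4 the nearest were CILP2 (0.96) and DENND1C (0.94), for FZD7 MAF1 (0.97) and TMEM250 (0.96), and for FZD1 FAM200A (0.98) and ULBP3 (0.97). The genes named for FZD9, FZD7 and FZD1 were likewise not among the top 2 by Spearman's rho, while 1 of the 2 named for FZD4 was. These correlations describe 12 libraries in 6 groups that share their sorting and processing.

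FZD7 (ENSG00000155760) belongs with FZD1 and FZD2 to a close branch of the family and is known as a stem cell receptor of the beta-catenin route. It was highest in WT, at 39.9 and 39.4 CPM, and stood at 39.5 and 33.3 with VPR, 25.6 and 27.4 with p300 and 34.4 and 30.7 with p300 D1399Y. With VPRP it was at 24.1 and 21.2 CPM under sgHBB and at 32.7 and 32.5 CPM under the non-target guide. The p300 and VPRP sgHBB libraries were the lowest 4 of the 12. FZD7 fell against WT with VPRP sgHBB (log2 -0.81, SE 0.11, adjusted p = 4.44e-08) and with p300 (log2 -0.58, SE 0.10, adjusted p = 2.05e-05). VPRP sgHBB was below VPR (log2 -0.69, SE 0.11, adjusted p = 1.65e-06) and below VPRP non-target (log2 -0.53, SE 0.11, adjusted p = 0.000218), and VPR was above p300 (log2 0.46, SE 0.10, adjusted p = 0.000714).

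Each of these 5 calls for FZD7 held with any library left out, and each sets a group with MAGEA10 reads against one nearly without, and the part of that split in them was not tested. Between groups nearly without MAGEA10 reads, VPRP sgHBB and p300 were not told apart for FZD7 (log2 -0.23, SE 0.11, adjusted p = 0.111). FZD7 was lower with p300 than with p300 D1399Y (log2 -0.30, adjusted p = 0.0277), lost without p300 replicate 1 (0.18), p300 replicate 2 (0.0545) or p300 D1399Y replicate 1 (0.316), and with DESeq2, upper-quartile factors or no filter on low counts (0.0585 to 0.0611). The falls of FZD7 against WT with p300 D1399Y (log2 -0.28, adjusted p = 0.0355) and VPRP non-target (log2 -0.28, adjusted p = 0.017) were also unstable. The first was lost without WT replicate 1 (0.137), WT replicate 2 (0.113) or p300 D1399Y replicate 2 (0.287) and with DESeq2 (0.0525). The second was lost without WT replicate 1 (0.0619) or VPRP non-target replicate 2 (0.0527) and with upper-quartile factors (0.0502).

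FZD1 (ENSG00000157240), a beta-catenin route receptor of the same branch, rose against WT with VPRP. Under the same guide, FZD1 with VPRP sgHBB was not called against VPR (log2 0.21, SE 0.11, adjusted p = 0.134). Nor was FZD1 called for VPRP sgHBB against p300 (log2 0.22, SE 0.11, adjusted p = 0.156). FZD1 was at 22.7 and 20.0 CPM in WT, 24.2 and 22.1 with VPR, 23.2 and 22.8 with p300, and 21.2 and 17.01 with p300 D1399Y. With VPRP it was at 27.7 and 25.9 CPM under sgHBB and at 30.5 and 29.3 CPM under the non-target guide, so the 4 VPRP libraries were the highest. With VPRP non-target the rise over WT was 1.40-fold (log2 0.49, SE 0.11, adjusted p = 0.000405), and it was called with any library left out. With VPRP sgHBB it was 1.25-fold (log2 0.33, adjusted p = 0.0149), lost without WT replicate 2 (0.174) or VPRP sgHBB replicate 1 (0.103). VPRP non-target exceeded VPR for FZD1 by 0.37 on the log2 scale (adjusted p = 0.00611), lost without VPR replicate 2 (0.0691) or VPRP non-target replicate 1 (0.0586).

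FZD2 (ENSG00000180340), which serves the beta-catenin route and the route of Wnt5a, showed no gap between neighbouring groups in the order of means. Its libraries were at 22.5 and 25.9 CPM in WT, 30.5 and 23.0 with VPR, 17.4 and 23.5 with p300, and 28.5 and 23.9 with p300 D1399Y. Under VPRP they were at 19.4 and 18.9 CPM with sgHBB and at 24.4 and 25.3 CPM with the non-target guide. VPRP sgHBB had the lowest mean, 19.1 CPM. It was called lower than VPR (log2 -0.49, SE 0.14, adjusted p = 0.00305), lost without VPR replicate 1 (0.151). It was also called lower than WT (log2 -0.34, adjusted p = 0.0317; adjusted p = 0.064 with DESeq2) and than VPRP non-target (log2 -0.38, adjusted p = 0.031; 0.0646 with DESeq2). The first of these was lost without WT replicate 2 (0.245), VPRP sgHBB replicate 1 (0.0654) or VPRP sgHBB replicate 2 (0.092), and with upper-quartile factors (0.0709). The second was lost with any of its 4 libraries left out, at adjusted p from 0.0893 to 0.164.

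Between the remaining groups FZD2 was called higher with VPR than with p300 (log2 0.39, adjusted p = 0.0225), although the libraries overlapped, and the call was lost without VPR replicate 1 (0.442) or p300 replicate 1 (0.396), with DESeq2 (0.0575) and with the compared groups alone (0.0552). It was called lower with p300 than with p300 D1399Y (log2 -0.36, adjusted p = 0.0394), lost without p300 replicate 1 (0.503) or p300 D1399Y replicate 1 (0.398), and with DESeq2 (0.0879) or upper-quartile factors (0.0718). With FZD7, FZD2 made up the 2 of 10 members called between p300 and p300 D1399Y, both lower with p300, where 30.4% of all genes were called (15.4% higher, 15.0% lower). The same pair was called in VPR against p300, 2 of 9 tested and both higher with VPR, beside 34.3% of all genes (17.0% higher, 17.2% lower).

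FZD5 and FZD8 form another branch, and FZD5 is known for its role in the gut and the developing eye. FZD5 (ENSG00000163251) was at 37.2 and 34.2 CPM in WT, 31.5 and 29.3 with VPR, 31.1 and 30.8 with p300, and 35.9 and 31.6 with p300 D1399Y. Under VPRP it was at 33.9 and 38.7 CPM with sgHBB and at 49.0 and 48.4 CPM with the non-target guide. The VPRP non-target libraries alone stood apart, above the other 10. FZD5 rose with VPRP non-target against WT (log2 0.45, SE 0.10, adjusted p = 0.000141) and against VPR (log2 0.68, SE 0.10, adjusted p = 3.98e-07). Under VPRP it was lower with sgHBB than with the non-target guide (log2 -0.42, SE 0.09, adjusted p = 0.000827). These 3 calls held with any library left out. A rise of VPRP sgHBB over VPR (log2 0.26, adjusted p = 0.0315) was lost without VPR replicate 2 (0.179) or VPRP sgHBB replicate 2 (0.319), with no filter (0.0792) and with the compared groups alone (0.0542).

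FZD8 (ENSG00000177283) was at 12.1 and 12.6 CPM in WT, 12.2 and 12.2 with VPR, 10.9 and 12.8 with p300, and 15.0 and 12.0 with p300 D1399Y. Under VPRP it was at 12.8 and 12.8 CPM with sgHBB and at 18.6 and 16.7 CPM with the non-target guide. As for FZD5, the 2 VPRP non-target libraries were the highest of the 12. VPRP non-target exceeded VPR by 0.53 on the log2 scale (SE 0.14, adjusted p = 0.00164), a call that held with any library left out. It exceeded WT by 0.51 (SE 0.14, adjusted p = 0.00197), lost without VPRP non-target replicate 1 (0.053). VPRP sgHBB was lower than VPRP non-target (log2 -0.47, SE 0.14, adjusted p = 0.00976), lost without VPRP sgHBB replicate 1 (0.0515), VPRP sgHBB replicate 2 (0.0626) or VPRP non-target replicate 1 (0.141). Pearson's r of the log2 CPM of FZD5 and FZD8 over the 12 libraries was 0.86, the second highest of the pairs within the family after FZD1 and FZD9 (0.88).

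FZD3 and FZD6, the branch known for planar cell polarity, changed least. FZD6 (ENSG00000164930) was at 22.4 and 25.2 CPM in WT, 26.8 and 30.3 with VPR, 29.5 and 30.1 with p300, and 32.0 and 28.8 with p300 D1399Y. Under VPRP it was at 30.5 and 30.7 CPM with sgHBB and at 26.8 and 24.3 CPM with the non-target guide. It was called higher than in WT with p300 (log2 0.32, adjusted p = 0.0132), p300 D1399Y (log2 0.35, adjusted p = 0.0112) and VPRP sgHBB (log2 0.36, adjusted p = 0.00428), the 3 groups nearly without MAGEA10 reads. Each of these calls for FZD6 was lost without WT replicate 1, at adjusted p = 0.156, 0.147 and 0.0825 in that order. The p300 call was also lost without p300 replicate 2 (0.068) and the D1399Y call without p300 D1399Y replicate 1 (0.216). VPR, which has MAGEA10 reads, also lay above WT for FZD6 (log2 0.26, not tested). VPR and p300 were not told apart for FZD6 (log2 -0.06, SE 0.11, adjusted p = 0.686). The part of the MAGEA10 split in the level of FZD6 was not tested.

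FZD3 (ENSG00000104290) was at 28.6 and 26.1 CPM in WT, 32.9 and 31.6 with VPR, 28.5 and 28.5 with p300, and 26.4 and 29.7 with p300 D1399Y. Under VPRP it was at 26.1 and 28.8 CPM with sgHBB and at 27.9 and 26.7 CPM with the non-target guide. The highest group mean was 1.18 times the lowest, the narrowest range in the family. VPR was the highest group, and FZD3 was called lower with VPRP non-target than with VPR (log2 -0.24, SE 0.10, adjusted p = 0.0451). That call was lost with any of its 4 libraries left out (adjusted p from 0.0531 to 0.191) and under every other alternative tried (0.0503 to 0.131).

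**Figure D3:**
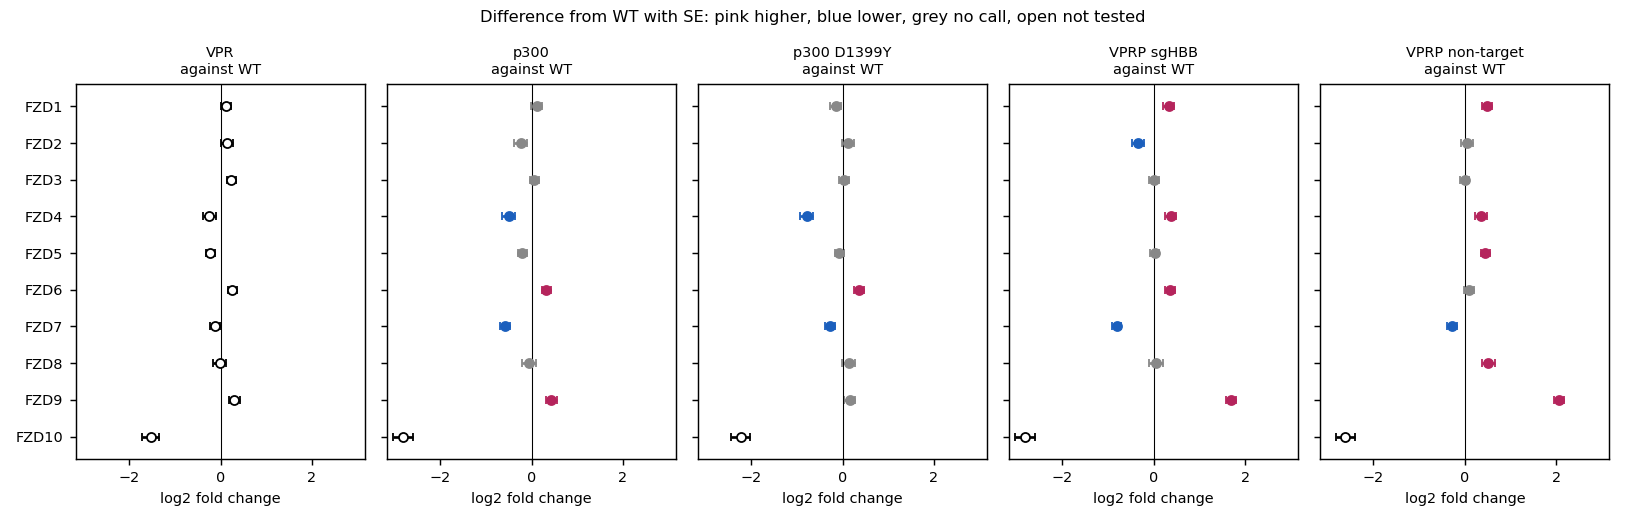
Log2 fold change of each Frizzled gene against WT in the 5 fusion groups, with the standard error of the fit as bars (linear axis in log2 units, 2 libraries a group). Filled pink and blue points were called higher or lower, grey points were not called, and open points were not tested. FZD9 reaches 1.68 and 2.06 with the VPRP groups, and FZD10 lies at -1.53 to -2.81.

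Between VPRP and its parts, 5 of the 9 tested members were called for VPRP sgHBB against VPR, with FZD4, FZD5 and FZD9 higher and FZD2 and FZD7 lower, where 49.8% of all genes were called (24.7% higher, 25.1% lower). Against p300, only FZD4 and FZD9 of the 10 were called, both higher with VPRP sgHBB, beside 27.9% (14.3% higher, 13.7% lower). Under VPRP, 5 of the 10 were lower with sgHBB than with the non-target guide (FZD2, FZD5, FZD7, FZD8 and FZD9), where 29.3% of all genes were called (14.9% higher, 14.4% lower). That count fell to 2 without VPRP sgHBB replicate 2, and FZD5 and FZD7 were the calls that held with any library left out. EP300 reads were also lower under sgHBB than under the non-target guide (375 and 1172 CPM), and the part of the fusion's level in these differences was not tested. VPRP non-target against VPR differs in both the guide and the p300 part. In it 5 of the 9 tested were higher (FZD1, FZD4, FZD5, FZD8, FZD9) and FZD3 was lower. Beside them, 55.3% of all genes were called (27% higher, 28.2% lower). In VPR against WT, the members other than FZD10 lay between -0.24 (FZD4) and 0.30 (FZD9) on the log2 scale.

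**Figure D4:**
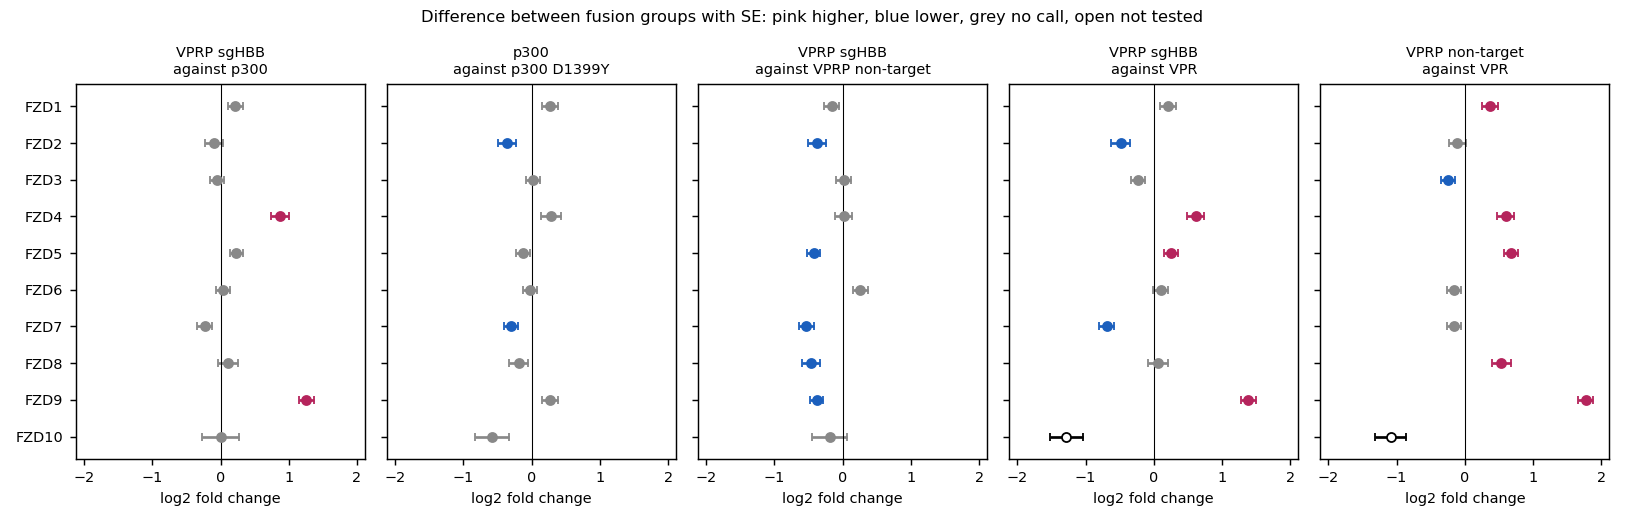
Log2 fold change of each Frizzled gene between fusion groups, with the standard error of the fit as bars (linear axis in log2 units, 2 libraries a group). Filled pink and blue points were called higher or lower for the group named first, grey points were not called, and open points were not tested. FZD4 and FZD9 lie at 0.87 and 1.26 for VPRP sgHBB against p300, while FZD10 lies at 0.0016.

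Of 85 other genes of the Wnt route, 75 passed the filter, and 48 of them were called with VPRP sgHBB against WT, 20 higher and 28 lower, which is 64% beside the 59.1% of all genes. With VPRP non-target the numbers were again 20 and 28 (64%, beside 59.7% of all genes). They were 15 and 27 with p300 (56%, beside 46.1%) and 13 and 10 with p300 D1399Y (30.7%, beside 30.2%). Their median log2 fold change was -0.14 with VPRP sgHBB. Except where stated, the calls named in the next paragraphs held with any library left out.

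Among 10 co-receptors and relatives of the Frizzleds, 2 were higher and 6 lower with VPRP sgHBB than in WT, where 31.1% of all genes were higher and 28.0% lower. The same shares stand beside the list counts for VPRP sgHBB that follow, and with lists of 8 to 14 genes nothing particular to a list is read from them. GPC3, a glypican that binds Wnts at the cell surface, fell from 165 and 154 CPM in WT to 57.2 and 54.8 CPM with VPRP sgHBB (log2 -1.51, SE 0.08, adjusted p = 1.8e-17). It was also lower with p300 (log2 -1.42, adjusted p = 3.75e-16) and p300 D1399Y (log2 -1.06, adjusted p = 8.55e-13). GPC3 averaged 94.4 CPM with VPR and 49.5 CPM with VPRP non-target, the lowest group mean, against 160 CPM in WT. LRP6 and LRP5, which bind Wnts together with a Frizzled, went opposite ways. LRP6 stood at 51.0 and 54.5 CPM in WT and at 87.2 and 94.3 CPM with VPRP sgHBB (log2 0.78, SE 0.08, adjusted p = 6.18e-10), and it was not called with p300 (log2 0.06, adjusted p = 0.566) or p300 D1399Y (log2 -0.0048, adjusted p = 0.98). LRP5 fell from 132 and 131 CPM to 90.7 and 85.5 CPM with VPRP sgHBB (log2 -0.58, adjusted p = 2.04e-07).

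Of 14 Wnt ligand genes that passed the filter, 6 were higher and 4 lower with VPRP sgHBB. WNT4, a ligand of kidney and gonad development, was at 0.672 and 0.453 CPM in WT, 3.49 and 3.36 CPM with p300 and 5.74 and 5.63 CPM with VPRP sgHBB, a log2 rise of 2.59 and 3.32 (adjusted p = 2.05e-06 and 2.73e-09). It was not called with p300 D1399Y (log2 0.47, adjusted p = 0.528), and it was higher with p300 than with p300 D1399Y (log2 2.12, adjusted p = 4.02e-05). EP300 reads were also higher with p300 than with p300 D1399Y (1124 and 195 CPM), so activity and fusion level cannot be told apart for WNT4. WNT6 rose by 2.76 with VPRP sgHBB (adjusted p = 8.6e-08), and by 2.31 with p300 D1399Y (adjusted p = 1.59e-05), where its libraries were at 3.01 and 4.29 CPM against 0.538 and 0.906 CPM in WT. WLS, which carries Wnts to the surface, fell by 0.51 on the log2 scale with VPRP sgHBB (adjusted p = 1.13e-07).

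Of 9 secreted inhibitors 4 were called higher with each VPRP group, beside 31.1% of all genes with sgHBB and 31.2% with the non-target guide. DKK3, a Dickkopf relative whose effect on Wnt signals varies with the setting, was at 0.941 and 1.03 CPM in WT. It was at 4.24 and 3.90 CPM with VPR, 7.65 and 9.13 with p300, and 3.70 and 4.63 with p300 D1399Y. With VPRP it was at 17.5 and 16.1 CPM under sgHBB and at 11.5 and 12.4 CPM under the non-target guide. The rise with VPRP sgHBB was 4.08 on the log2 scale (SE 0.23, adjusted p = 8.62e-17). SFRP1, a soluble protein that binds Wnts with a domain like that of the Frizzleds, rose by 1.14 with VPRP sgHBB (adjusted p = 0.00182) and by 2.26 with VPRP non-target (adjusted p = 2.44e-08), where it was at 8.32 and 8.75 CPM against 1.81 and 1.75 CPM in WT. In the turnover list 1 gene was higher and 3 of 8 were lower, among them LGR5, the R-spondin receptor of stem cells, from 8.33 and 8.02 CPM in WT to 1.57 and 2.27 CPM with VPRP sgHBB (log2 -2.07, SE 0.25, adjusted p = 1.13e-08).

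Downstream of the receptors, 3 of 9 cytoplasmic transducers were higher and 5 lower with VPRP sgHBB. CTNNB1, which encodes beta-catenin, rose from 444 and 418 CPM in WT to 718 and 665 CPM (log2 0.68, SE 0.07, adjusted p = 2.77e-10), and GSK3B, a kinase of the destruction complex, rose by 0.61 (adjusted p = 4.32e-08). With VPRP sgHBB DVL1, a Dishevelled, fell by 0.87 (adjusted p = 1.2e-12) and AXIN1, the scaffold of the destruction complex, fell by 0.83 (adjusted p = 2.7e-10). Of 8 planar polarity genes 1 was higher and 4 were lower, and 3 in all were called without WT replicate 1 or without VPRP sgHBB replicate 1. CELSR1, a cadherin of that list, fell by 0.64 (adjusted p = 4.4e-07).

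In the nucleus, 3 of 8 factors were lower with VPRP sgHBB. LEF1, which carries beta-catenin to DNA, fell from 44.2 and 49.6 CPM in WT to 17.5 and 16.6 CPM (log2 -1.46, SE 0.10, adjusted p = 4.87e-14). The 14 listed targets of beta-catenin showed no shared direction, with 5 higher and 4 lower. Among them LGR5, RNF43, ZNRF3, NOTUM, DKK1, LEF1 and TCF7 are counted in other lists as well. CCND1, the cyclin D1 gene, was among the lower ones, at 54.8 and 60.7 CPM in WT and 11.3 and 15.0 CPM with VPRP sgHBB (log2 -2.13, SE 0.12, adjusted p = 5.32e-17). Other listed targets had higher means with VPRP sgHBB than in WT, such as NKD1 (21.9 and 6.48 CPM) and DKK1 (2.99 and 0.785 CPM). AXIN2 averaged 7.88 CPM with VPRP sgHBB and 9.33 CPM in WT. These are RNA levels, and neither surface receptor nor Wnt signal was measured in these libraries.

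**Figure D5:**
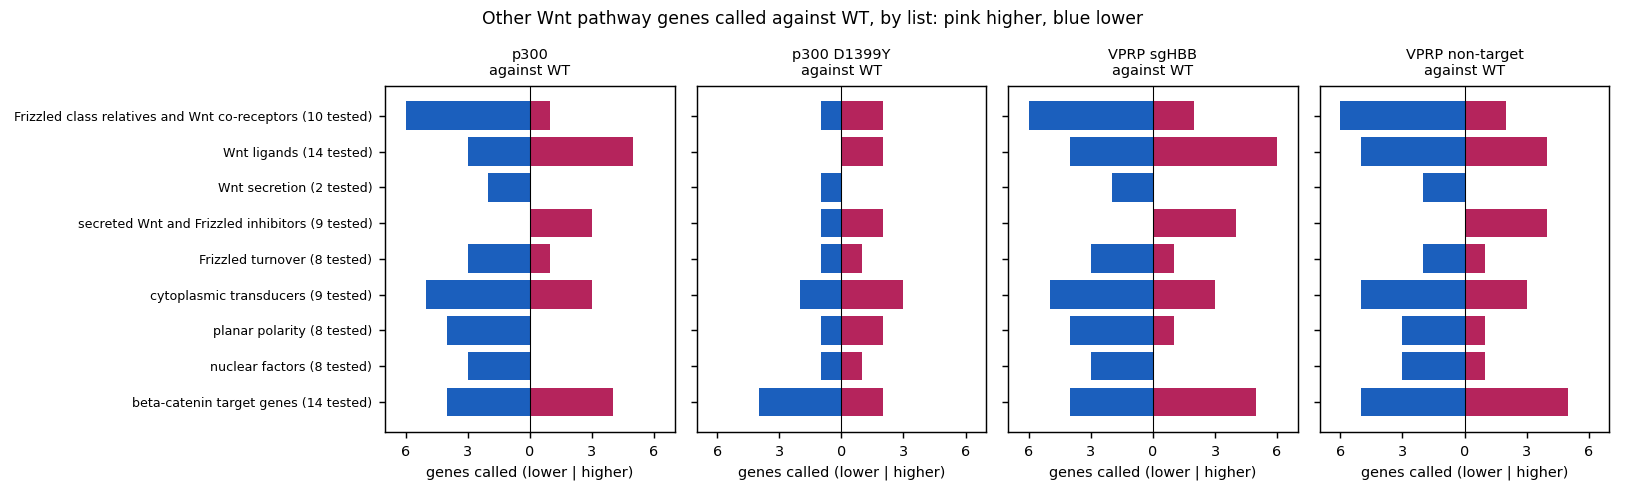
Number of genes in each of 9 Wnt lists called higher (pink, to the right) or lower (blue, to the left) than in WT, for 4 fusion groups, with the number that passed the filter beside each list name. Co-receptors and relatives are lower in 6 of 10 cases with p300 and with both VPRP groups. Of all genes, 21.6% were lower with p300, 28.0% with VPRP sgHBB and 28.5% with VPRP non-target. Secreted inhibitors are higher in 4 of 9 cases with each VPRP group, beside 31.1% of all genes with sgHBB and 31.2% with the non-target guide. With lists this short, nothing particular to a list is read from these counts.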

How the data were processed

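The submitters' processing notes name STAR 2.5, HTSeq 0.6.1, DESeq2 1.24.0 and build hg19, without the role of each. The annotation release and strand setting were not given in the sources used here. The deposited table holds raw counts per Ensembl gene for 12 RNA libraries. The 10 samples without RNA counts were not analysed here. Most carry H3K27ac labels, and the rest were left unassigned because their labels conflict. Symbols came from a gene name table and neighbours and promoters from RefSeq (GRCh38.p14).

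Counts were analysed with edgeR 4.0.16 (R 4.3.3): filterByExpr by group (minimum count 10, minimum total 15), TMM factors, and a quasi-likelihood test with group as the only term over all 12 libraries, with Benjamini-Hochberg adjustment over 16694 genes. CPM are scaled by TMM factors. The standard error is the log2 fold change divided by the root of F. With 2 libraries a group, the spread is estimated over all groups, and p-values set each difference against that shared spread. The replicates were not equally close in all groups. Their variance, relative to that of random (Poisson) counting, was 13.7 in VPR and 8.2 in VPRP sgHBB. It was 5.2 in p300 D1399Y, 3.6 in p300, 3.5 in WT and 2.9 in VPRP non-target. The shared spread can therefore be too small for VPR and VPRP sgHBB, and p-values for them too low. The scripts were tested on simulated counts.

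Named genes were all members, up to 4 of each Wnt list with the largest range between group means (of these, the text describes a selection made after their values were seen), and the genes most correlated with each member. The members and lists were chosen with earlier results of these data known. Each result was also computed with DESeq2 1.42.0, with upper-quartile or RLE factors, with no filter or a filter of 1 CPM in 2 libraries, with the compared groups alone, a replicate block, and each library left out.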

Additional observations from a re-analysis of the deposited data

How the results depend on the processing

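Of 41 called values of Frizzled genes, none changed sign under any alternative, 20 stayed called under all of them, 21 were lost with at least 1 library left out and 10 under at least 1 other setting. Of 52 values that were not called, 6 were called under some alternative and 25, none larger than 0.19 on the log2 scale, changed sign. The 8 described values of FZD10 kept their sign. The number of Frizzled genes called for p300 against p300 D1399Y (2) became 0 with DESeq2, 1 with upper-quartile factors (FZD9, higher with p300, while FZD2 and FZD7 were lost), 1 with no filter and 0 to 2 with a library left out. For VPR against p300 (2) it was 1 with DESeq2, 1 with the compared groups alone and 1 to 2 with a library left out. Leaving out a library gave 1 to 2 for p300 D1399Y against WT, 3 to 5 for VPRP sgHBB against WT and 2 to 4 for VPRP sgHBB against VPRP non-target. FZD10 in VPRP sgHBB against p300 (0.0016) was -0.0007 with upper-quartile factors, -0.0056 with no filter and -0.25 to 0.24 with a library left out, and in VPRP sgHBB against VPRP non-target it ranged from -0.44 to 0.0617. The cause was not tested.

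Replicate numbers did not pair the libraries: deviations of same-numbered libraries correlated at -0.28 to 0.20 between groups. With the replicate block, 1 Frizzled gene was called for p300 against p300 D1399Y, with FZD2 lost (adjusted p = 0.0501), and counts in the other comparisons stayed within 1.5 times.

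Among all genes, 4220 were called for VPR against WT and 2548 without WT replicate 2, 2752 without WT replicate 1 and 2746 without VPR replicate 2. For p300 against p300 D1399Y, 5076 became 3193 without p300 D1399Y replicate 1 and 3226 without p300 replicate 1. For VPRP sgHBB against p300, 4660 became 3089 without p300 replicate 1. For VPRP sgHBB against VPRP non-target, 4898 became 3185 and 3200 without either VPRP non-target library. FZD10 has the fewest counts of the 10 Frizzled genes in the fusion groups, and its standard errors are the largest of the family.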
